A study of Sus scrofa and Rattus norvegicus with 8 samples.

Results

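The mitochondrial carrier family, SLC25, was examined in the subcutaneous fat of the pig. Members were all gene IDs of the pig expression table whose pig gene name was SLC25A followed by a number. This gave 41 members of the 14857 named IDs, and of 25880 IDs in all. Of 48 family numbers considered, 7 (SLC25A2, SLC25A18, SLC25A29, SLC25A30, SLC25A37, SLC25A51 and SLC25A52) had no named ID and were not analysed here.

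SLC25 carriers are proteins of mostly the inner mitochondrial membrane, each built from repeats of a domain with a pair of membrane helices. They let nucleotides, phosphate, organic acids, amino acids, acylcarnitine and cofactors pass a membrane that is otherwise closed to them. In white fat cells they sit between glycolysis, fatty acid synthesis, fatty acid oxidation and ATP production, since citrate leaves, and acylcarnitine, phosphate and ADP enter, through members of the family.

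The data were RNA-seq values from the upper layer of backfat of 6 adult female Bama pigs, each 2 years old, from a series that compared white fat between mammals. The study's methods describe the pigs as separate animals, and the labels give no treatment, genotype or control group. The series also holds 2 pools of inguinal fat from female SD rats, 32 weeks old, whose gene IDs were not paired with names and which were not analysed here. Expression is in TPM, a transcript abundance corrected for transcript length on a fixed total per library, so levels of different genes can be compared within a library, and the depth of the libraries is unknown.

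Replicates 4 and 5 stood apart from the rest. Named nuclear genes held 3.34% and 4.73% of their TPM, against 24.1 to 26.3% in the other 4 pigs, and the 13 mitochondrially encoded protein genes held 0.209% and 0.298%, against 10.8 to 21.2%. The summed TPM of the family was 118 and 173 in these libraries and 674 to 832 in the others. Values were therefore rescaled so that the 14844 named nuclear genes sum to 1000000 in each library (rescaled TPM), and shares and ratios within a library, which do not depend on scaling, are given wherever possible. All 8 adipocyte markers were measured, with list medians of 1121 and 1051 rescaled TPM in replicates 4 and 5 and 1313 to 1746 in the others. Their sums did not follow the medians, at 27305 and 36525 against 19983 to 34686. In both of these libraries 1 marker was higher and 4 were lower than in every other pig. Over named nuclear genes 10.4% and 50.1% were. The median over the skeletal muscle markers present (5 of 11) was at most 2.79, and that over 7 testis germ cell markers was 0 in every pig. Macrophage markers (7 of 7 present) had medians of 29.7 and 17.6 in replicates 4 and 5 and 66.6 to 97.7 in the others, and endothelial markers (5 of 7) 49.4 and 61.1 against 61.5 to 112.5. Lymphoid and brown or beige markers had medians of at most 7.51 and 1.76. Liver markers (7 of 7) summed to 1304 and 1600.1 in replicates 4 and 5 and to 204 to 1193 in the others. ALB held 772 and 1091 of the former sums, and was at 47.6 to 794 in the other pigs. The liver medians, 18.6 and 17.8 in replicates 4 and 5, lay within the 6.66 to 21.1 of the others. Erythroid markers (5 of 8), mostly HBB, summed to 118 to 973, with replicate 4 the highest. The part of any of these in the results on replicates 4 and 5 was not tested. In bulk tissue, fewer cells of a type and less RNA per cell cannot be told apart.

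Most of the carrier transcripts in this fat came from few genes. In rescaled TPM the family summed to 3234 ± 312 (SD, n = 6), or 0.323% ± 0.0312 (SD, n = 6) of named nuclear transcripts. At over 0.1 TPM, 34 of 41 members (82.9%) were detected in all 6 pigs, where 67.2% of named nuclear genes were. Another 5 were detected in some pigs and 2 in none. SLC25A31, an ADP/ATP carrier known from germ cells, was listed at 0 in every library, and SLC25A53 stayed at a mean of 0.248 rescaled TPM. The median member had a mean level of 19.3 rescaled TPM, beside 16.7 for the median named nuclear gene. Among genes with a mean of at least 1 the order was the other way, 21.1 for the members and 25.5 for named nuclear genes. Mean levels were at least 1 in 38 members, at least 10 in 31 and at least 100 in 7.

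**Figure D1:**
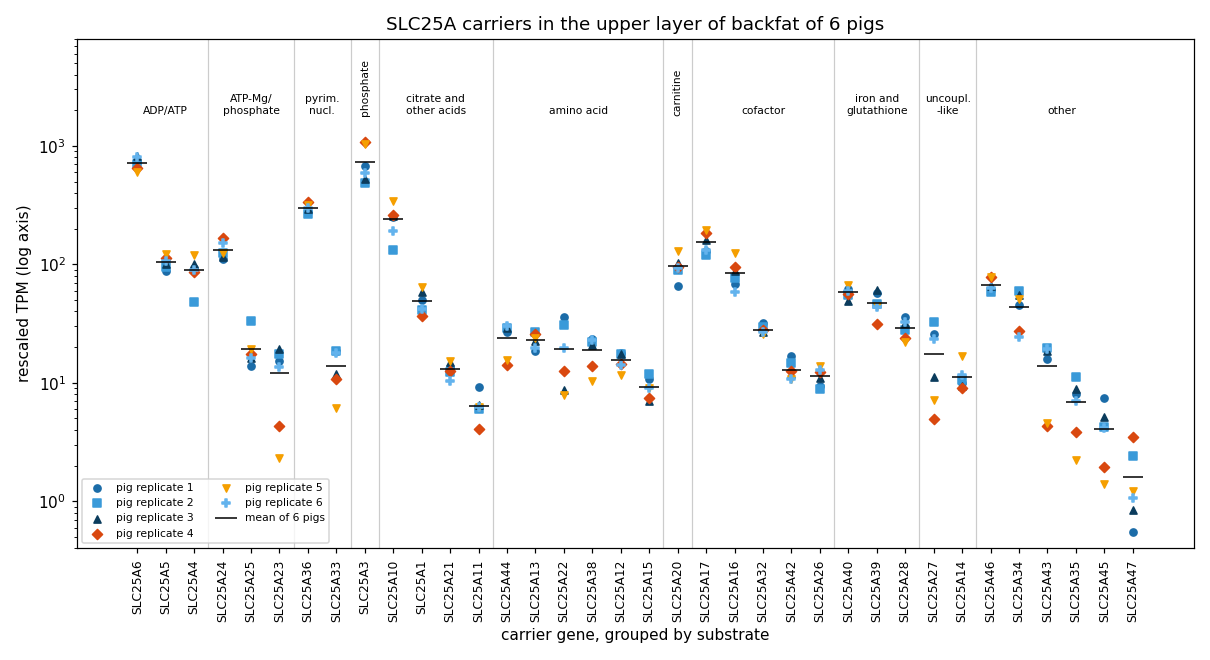
Rescaled TPM (log axis) of 36 carriers in each of 6 pigs, grouped by substrate, with the mean as a black line. SLC25A3 and SLC25A6 lie at 486 or more in every pig, and the 3 members with a mean under 1, as well as SLC25A41, which was listed at 0 in 4 pigs, are among those not drawn.

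The ADP/ATP carriers, which exchange cytosolic ADP for the ATP made in the matrix, held the largest class share in the mean and in 4 pigs, 28.5% ± 4.09 (SD, n = 6) of the family's TPM. In replicates 4 and 5 the phosphate class was larger (30.5% against 23.9%, and 28.2% against 23.0%). A single gene, SLC25A6, held most of the ADP/ATP share. The coding sequences of SLC25A4, SLC25A5 and SLC25A6 were identical at 77.1 to 79.1% of bases in RefSeq (Sscrofa11.1), and no stretch of 31 bases was shared by any pair. The same 30 coding bases (697 to 726, sense strand) are printed for each because they hold a conserved stretch of the ADP/ATP carriers. Capitals mark the codons of the arginine and methionine run that is the hallmark of ADP/ATP carriers.
SLC25A4: actgtcCGCCGTAGGATGATGATGcagtct
SLC25A5: actgtaCGTCGACGCATGATGATGcagtca
SLC25A6: accgtgCGGCGGCGGATGATGATGcagtcc
Each pair differed at 6 of these 30 bases, of which 3 to 4 lie in capitals. SLC25A4 lies at chr15:46193498-46197989 on the plus strand and SLC25A5 at chrX:97919295-97922245 on the plus strand, both in 4 exons, and SLC25A6 on an unplaced scaffold, also in 4 exons.

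SLC25A6 was at 737, 699, 827, 645, 598 and 802 rescaled TPM in replicates 1 to 6. The values of replicates 4 and 5 were the lowest, and the mean was 718 ± 88.6 (SD, n = 6). SLC25A5, the form known from proliferating cells, was at 87.7, 95.4, 101, 113, 123 and 107, with its highest values in replicates 4 and 5. SLC25A4, the form known from heart and skeletal muscle, was at 93.9, 47.8, 100.4, 86.7, 119.8 and 89.9, with replicate 2 the lowest. SLC25A6 exceeded SLC25A4 in 6 of 6 pigs, by 4.99 to 14.6 times (median 8.04), and the mean log2 difference was 3.03 ± 0.49 (SD, n = 6). It exceeded SLC25A5 by 4.87 to 8.41 times (log2 difference 2.77 ± 0.31 SD, n = 6). Both differences passed the exact two-sided sign-flip permutation test (p = 0.03125, the smallest that 6 pigs allow, adjusted p = 0.043 over the 11 pairs compared). SLC25A5 was above SLC25A4 in 5 of 6 pigs, and that difference did not pass (log2 difference 0.26 ± 0.39 SD, exact permutation p = 0.156, adjusted p = 0.156).

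Phosphate for ATP synthesis enters the matrix through SLC25A3 (chr5:85284405-85292336, minus strand, 9 exons). It was at 675, 486, 529, 1079.7, 1027 and 593 rescaled TPM in replicates 1 to 6. Replicates 4 and 5 were well above the rest, and the groups did not overlap. The mean was 732 ± 258 (SD, n = 6) over all pigs and 571 ± 82.0 (SD, n = 4) without these libraries. SLC25A3 stood above 99.0% of named nuclear genes in mean level. Together with SLC25A6 it made up 44.7% of the family, and with SLC25A36 and SLC25A10 61.2% ± 3.01 (SD, n = 6). SLC25A3 was 5.10 to 9.58 times SLC25A5, in 6 of 6 pigs (exact permutation p = 0.03125, adjusted p = 0.043).

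The order of the 2 leading carriers was not the same in every pig. The ratio of SLC25A3 to SLC25A6, chosen after the values were seen and not tested, was 0.915, 0.695, 0.639 and 0.740 in replicates 1, 2, 3 and 6, and 1.67 and 1.72 in replicates 4 and 5. SLC25A6 therefore led in 4 pigs and SLC25A3 in the libraries that stand apart. Over all pigs their shares were 22.5% ± 4.17 for SLC25A6 and 22.2% ± 5.80 for SLC25A3 (SD, n = 6). Without replicates 4 and 5 they were 25.1% and 18.6%.

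**Figure D2:**
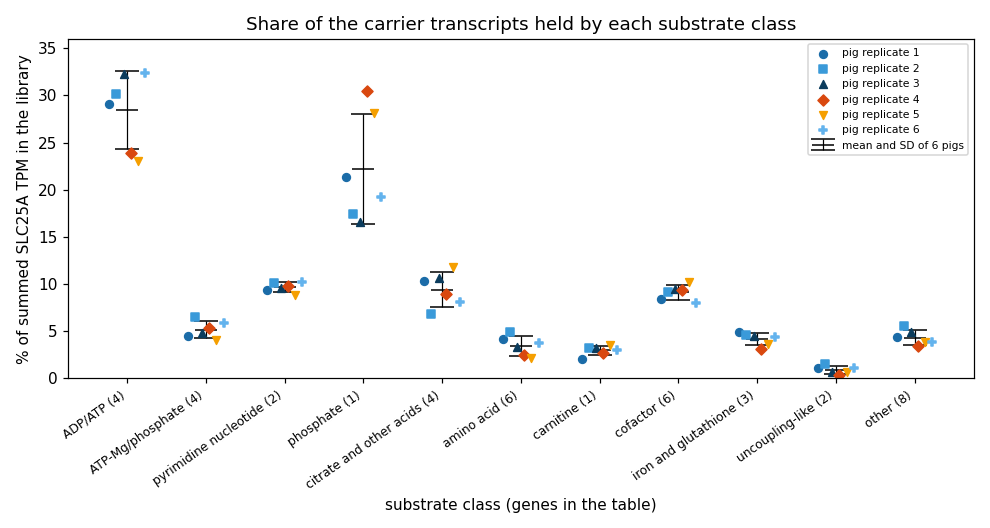
Percentage of the summed SLC25A TPM of a library held by each substrate class (linear axis), for each of 6 pigs, with the mean and SD in black. The ADP/ATP class is at 23.0 and 23.9% in replicates 5 and 4 and at 29.1 to 32.3% in the others, while phosphate is at 28.2 and 30.5% and 16.6 to 21.4%.

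The ATP-Mg/phosphate carriers, which set the total adenine nucleotide content of the matrix and of which several respond to calcium, held 5.17% ± 0.920 (SD, n = 6). SLC25A24 led this class with 111 to 166 rescaled TPM (median 126), and SLC25A25 and SLC25A23 had means of 19.4 and 12.0. SLC25A25 was at 33.1 in replicate 2 and 13.97 to 19.3 in the other pigs. SLC25A24 exceeded SLC25A23 by 6.06 to 53.6 times and SLC25A25 by 3.80 to 9.45 times, each in 6 of 6 pigs (exact permutation p = 0.03125, adjusted p = 0.043). SLC25A23 was at 15.2, 17.6, 19.1, 4.31, 2.34 and 13.6 in replicates 1 to 6, so both libraries that stand apart were low. The ratio of SLC25A24 to SLC25A23 was 38.5 and 53.6 there and 6.06 to 11.2 in the other 4 pigs. In deposited TPM SLC25A23 was at 0.144 and 0.111 in these libraries, close to the detection limit of 0.1. The size of their ratios is therefore uncertain. SLC25A25 exceeded SLC25A23 in 4 of 6 pigs and the difference did not pass (log2 difference 0.86 ± 1.14 SD, exact permutation p = 0.156, adjusted p = 0.156). SLC25A41, which lies 1932 bases beyond SLC25A23 on the same strand of chromosome 2, was at 5.16 and 2.02 in replicates 2 and 3 and listed at 0 in the other 4.

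Of the pyrimidine nucleotide carriers, SLC25A36 was the third most abundant member and among the steadiest. It was at 279, 265, 294, 338, 316 and 299 rescaled TPM, a mean of 298 ± 25.8 (SD, n = 6) with a coefficient of variation (CV, SD divided by mean) of 0.0866. SLC25A33, its relative of like substrate, was at 6.11 to 18.6 (median 14.8), with replicates 5 and 4 the lowest. SLC25A36 was 14.3 to 51.7 times SLC25A33 and above it in 6 of 6 pigs (log2 difference 4.41 ± 0.67 SD, exact permutation p = 0.03125, adjusted p = 0.043).

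The carriers of citrate and other acids held 9.43% ± 1.83 (SD, n = 6), most of it in SLC25A10, the dicarboxylate carrier that exchanges malate and succinate for phosphate. SLC25A10 was at 253, 131, 258, 262, 345 and 191 rescaled TPM, with replicate 2 the lowest and replicate 5 the highest. Of the 31-base stretches of its RefSeq transcripts, 53.5% are also in those of LOC110255939, so its level is uncertain where reads could be split between them. SLC25A11, the oxoglutarate carrier of the malate-aspartate shuttle, was at 4.04 to 9.29 (median 6.28). SLC25A10 was 21.9 to 64.9 times SLC25A11, the widest of the 11 ratios by median, 35.2 (log2 difference 5.00 ± 0.57 SD, 6 of 6 pigs, exact permutation p = 0.03125, adjusted p = 0.043). The ratio of 64.9 was in replicate 4, where SLC25A11 was at 0.135 deposited TPM, close to the detection limit of 0.1. SLC25A1, the citrate carrier that supplies cytosolic acetyl-CoA for fatty acid synthesis, was at 50.5, 41.0, 57.9, 36.8, 64.5 and 42.1. Replicates 5 and 4 were its highest and lowest pig, so it did not follow the split of the libraries. Of the 31-base stretches of SLC25A1, 6.43% are shared with LOC100155135. SLC25A21, the oxodicarboxylate carrier, was steady at 13.2 ± 1.90 (SD, n = 6), but 26.5% of its 31-base stretches are shared with PAX9.

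Enzymes on the path from citrate to fatty acid were measured in the same libraries as SLC25A1. Citrate synthase (CS), which makes citrate in the matrix, was at 484 ± 99.3 rescaled TPM (SD, n = 6). ATP citrate lyase (ACLY), which splits it in the cytosol, was at 242 ± 188, and FASN, the fatty acid synthase, at 1513 ± 572. ACLY was at 618 in replicate 5 and 113 to 216 in the others. Replicate 5 was also the highest pig of SLC25A1, as it was of 12 of 38 members with a mean of at least 1. In replicate 4 ACLY was second highest, at 216, while SLC25A1 was at its lowest, 36.8. Of the 6 partner genes listed, 4 were higher in both replicates 4 and 5 than in every other pig, a pattern shown by 10.4% of the 12130 named nuclear genes with a mean of at least 1. CS was lower in both, at 379 and 386 against 434 to 618, as were 50.1% of those genes.

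Amino acid carriers were low as a class, 3.48% ± 1.05 (SD, n = 6) for 6 measured genes with means of 9.20 to 24.01 rescaled TPM. SLC25A13 and SLC25A12, the aspartate/glutamate carriers of the malate-aspartate shuttle, were at 18.4 to 26.6 and 11.6 to 18.0. SLC25A13 was higher in 6 of 6 pigs, by 1.03 to 2.06 times (log2 difference 0.53 ± 0.33 SD, exact permutation p = 0.03125, adjusted p = 0.043). In replicate 1 they were nearly level. The shuttle's enzymes in the table, GOT1, GOT2, MDH1 and MDH2, had means of 40.5, 145, 462 and 78.9 rescaled TPM.

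SLC25A44, the carrier of branched-chain amino acids, was at 26.9, 28.8, 28.8, 14.1, 15.5 and 29.9 rescaled TPM. The 4 pigs other than replicates 4 and 5 lay close together, and the CV was 0.0445 without these libraries and 0.299 with them. Of 5 enzymes of branched-chain amino acid breakdown, 3 (BCKDHB, DBT and DLD) were higher in both of these libraries, and BCAT2, the transaminase, was lower, at 42.1 and 43.7 against 52.4 to 106. Over named nuclear genes these patterns were shown by 10.4% and 50.1%. SLC25A22, a glutamate carrier, was the most uneven of the class, at 36.1, 30.5, 8.74, 12.7, 7.91 and 19.8, and its high and low pigs did not follow the same split. SLC25A15, the ornithine carrier of the urea cycle, was the lowest of the class, at 6.98 to 11.8, and 9.25% of its 31-base stretches occur in other genes. SLC25A38, a glycine carrier needed for haem synthesis, was at 20.8 to 23.5 in 4 pigs and at 13.8 and 10.5 in replicates 4 and 5.

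SLC25A20, which carries acylcarnitine in for fatty acid oxidation, was at 66.0, 89.1, 102.4, 95.8, 130.8 and 93.9 rescaled TPM (mean 96.3 ± 21.0 SD, n = 6), with replicate 1 the lowest and replicate 5 the highest. It was 2.97% of the family. CPT1A and CPT2, the acyltransferases on either side of it in the carnitine shuttle, were at 29.7 ± 20.1 and 31.5 ± 12.6, and CPT1B at 9.69 ± 5.57 (SD, n = 6). All 3 were lower in both replicates 4 and 5 than in the other pigs (50.1% of named nuclear genes were), which SLC25A20 was not.

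Cofactor carriers held 9.14% ± 0.808 (SD, n = 6), about as much as the acid carriers. SLC25A17, a peroxisomal member that carries coenzyme A and related nucleotides, led them at 131, 119, 161, 183, 196 and 133 rescaled TPM. SLC25A16 followed at 85.3 ± 23.5, and SLC25A42, a mitochondrial coenzyme A carrier, was at 10.7 to 16.8 (mean 12.9 ± 2.37 SD, n = 6), with 31.4% of its 31-base stretches shared with LOC100511007. SLC25A32, known as a folate and FAD carrier, had the smallest CV of all members, 0.0783, at 26.1 to 32.0. SLC25A26, which carries S-adenosylmethionine, was at 8.91 to 13.9 and shares 29.3% of its stretches with LRIG1.

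Among the carriers of iron and glutathione, SLC25A40 and SLC25A39, both linked to glutathione, were at 58.2 ± 6.12 and 47.4 ± 10.5 rescaled TPM (SD, n = 6). SLC25A40 was higher in 5 of 6 pigs and the difference did not pass (log2 difference 0.31 ± 0.38 SD, exact permutation p = 0.125, adjusted p = 0.153). Of the 31-base stretches of SLC25A40, 14.8% occur in other genes, most of them (13.6%) in RUNDC3B. SLC25A28, an iron importer, was at 22.3 to 35.9. The uncoupling-like members SLC25A14 and SLC25A27 held 0.919% ± 0.427 (SD, n = 6). SLC25A14 was at 16.7 in replicate 5 and 8.99 to 11.7 in the other pigs. SLC25A27 ranged from 4.93 to 32.8 and was low in both libraries that stand apart. Of carriers that bear other symbols, UCP3 was at 273 ± 199, UCP2 at 13.6 ± 8.56 and MTCH1 at 118 ± 13.1 (SD, n = 6). UCP3 ran from 78.0 in replicate 4 to 642 in replicate 3, and replicates 4 and 5 were its lowest pigs. The 8 members of other or unsettled substrate held 4.33% ± 0.799 (SD, n = 6) and had means of 0.248 to 67.4 rescaled TPM. They were led by SLC25A46, an outer membrane protein of mitochondrial dynamics (58.8 to 78.1), and SLC25A34 (24.5 to 59.2).

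**Figure D3:**
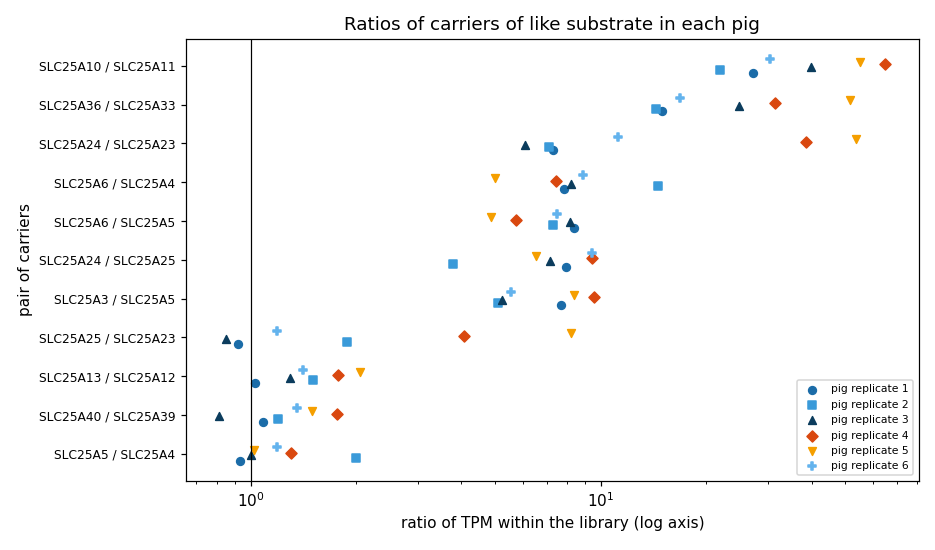
Ratio of TPM within each library (log axis) for 11 pairs of carriers, 1 point per pig, with the vertical line at a ratio of 1. For 8 pairs all 6 points lie above 1. Among these, replicates 4 and 5 lie farthest from 1 for SLC25A24 over SLC25A23, SLC25A36 over SLC25A33, SLC25A10 over SLC25A11, SLC25A3 over SLC25A5 and SLC25A13 over SLC25A12. They lie nearest to it for SLC25A6 over SLC25A4 and over SLC25A5.

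Ranked by mean rescaled TPM, neighbouring members mostly could not be told apart. Of 40 neighbouring pairs, the higher gene was higher in all 6 pigs in 4, namely SLC25A6 over SLC25A36, SLC25A10 over SLC25A17, SLC25A24 over SLC25A5, and SLC25A53 over SLC25A31. The order of the top 10 was SLC25A3, SLC25A6, SLC25A36, SLC25A10, SLC25A17, SLC25A24, SLC25A5, SLC25A20, SLC25A4 and SLC25A16. Without replicates 4 and 5, SLC25A6 came first, and 7 neighbouring pairs were told apart, among them SLC25A6 over SLC25A3 (766 and 571 rescaled TPM), SLC25A3 over SLC25A36 and SLC25A36 over SLC25A10.

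The spread between pigs was smaller for the carriers than for the median gene. The median CV was 0.259 over 38 members with a mean of at least 1, and 0.327 over 12130 named nuclear genes, and 25 of 38 members lay under the latter. Without replicates 4 and 5 the medians were 0.164 and 0.188. The smallest CVs among members with a mean of at least 10 were those of SLC25A32 (0.0783), SLC25A36 (0.0866), SLC25A40 (0.105), SLC25A5 (0.120) and SLC25A6 (0.123). The largest were those of SLC25A27 (0.647), SLC25A22 (0.611), SLC25A23 (0.585), SLC25A43 (0.532) and SLC25A33 (0.371). Leaving out replicates 4 and 5 took SLC25A43, at 4.32 and 4.58 in these and 16.0 to 19.6 elsewhere, to 0.0900 and SLC25A23 to 0.150. SLC25A22 stayed at 0.509, so its spread lay among the other 4 pigs too.

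**Figure D4:**
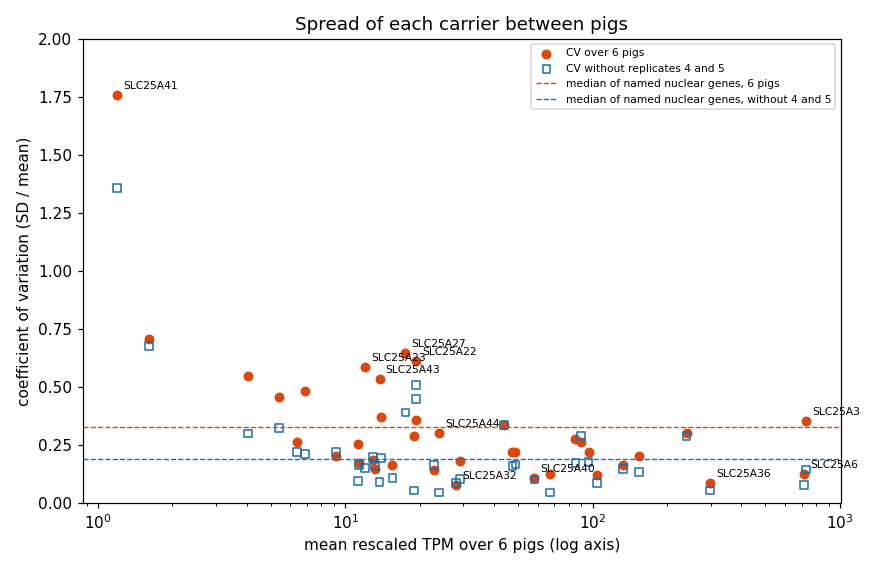
Coefficient of variation of 38 carriers against their mean rescaled TPM over 6 pigs (log axis). Filled points use all 6 pigs and open squares leave out replicates 4 and 5, with dashed lines at the medians of named nuclear genes, 0.327 and 0.188, and the open square of SLC25A43 falls to 0.0900.

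Replicates 4 and 5 are not a group of the study, so their difference from the other pigs is given as counts without a test. Both were higher than each of the other 4 in 7 of 38 members (18.4%), where 10.4% of named nuclear genes were. These were SLC25A3, SLC25A5, SLC25A10, SLC25A16, SLC25A17, SLC25A36 and SLC25A46, with ratios of means from 1.15 (SLC25A36) to 1.85 (SLC25A3). Both were lower in 10 of 38 (26.3%), where 50.1% of named nuclear genes were. These were SLC25A6, SLC25A23, SLC25A27, SLC25A28, SLC25A33, SLC25A35, SLC25A38, SLC25A43, SLC25A44 and SLC25A45, with ratios from 0.203 (SLC25A23) to 0.811 (SLC25A6).

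The split followed level within the family, and the shares over named nuclear genes moved with level too. At means of 1 to 10, 10 to 50 and at least 50, 5.09%, 9.42% and 16.2% of those genes were higher. The shares lower were 54.1%, 51.8% and 44.3%. All 7 members that were higher had means of at least 50 rescaled TPM, a limit chosen after the values were seen. They were 7 of 12 members above it (58.3%), where 16.2% of 3794 named nuclear genes were higher. Of the 10 that were lower, SLC25A6 was the only member above that limit (44.3% of genes there were lower). GC content of the longest RefSeq transcript was 36.6 to 67.0% (median 45.6%) in the 7 and 41.9 to 62.7% (median 55.9%) in the 10, and its part in the result was not tested. The directions depend on the scaling: the median log2 ratio of these libraries to the others over named nuclear genes was -0.50, and 27 of 38 members lay above it. That count was also 27 under 3 other scalings, which multiply each library by a constant and so could hardly change it. It was 20 on deposited TPM and 19 after median-centring, where values are lower and the 1 added before taking logs weighs more. On deposited TPM both libraries were lower in 37 of 38 members, where 98.2% of named nuclear genes were. After median-centring the ratios of the 7 were 0.73 to 1.14, so that none of them was higher in both. Of the 10, SLC25A38, SLC25A43 and SLC25A44 were lower in both under all 5 scalings other than deposited TPM. With median-of-ratios scaling the ratios of SLC25A6 and SLC25A28 were 1.17 and 1.05, and after median-centring those of SLC25A35 and SLC25A45 were 1.64 and 3.33. Before centring, 1 was added to deposited TPM. SLC25A35 and SLC25A45 were at 0.0653 to 0.129 deposited TPM in replicates 4 and 5, so their centred ratios rest mostly on the added 1.

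The carriers were lower in level than other mitochondrial gene lists. The median over 42 nuclear genes of oxidative phosphorylation was 7.63 ± 4.64 times that over the carriers (SD, n = 6), at 3.37 to 5.81 in 4 pigs and 12.2 and 14.7 in replicates 4 and 5. For 18 genes of mitochondrial fatty acid oxidation the ratio was 5.51 ± 1.65, for 14 of the citrate cycle 5.40 ± 1.36 and for 13 of import and the outer membrane 3.73 ± 1.85 (SD, n = 6). Replicates 4 and 5 were both higher in 31 of 42 oxidative phosphorylation genes and both lower in 1, and in 10 and 1 of 13 import genes. They were both higher in 8 and both lower in 5 of 18 fatty acid oxidation genes, and in 4 and 5 of 14 citrate cycle genes. Beside these stand the 7 and 10 of 38 carriers, and 10.4% and 50.1% of named nuclear genes (16.2% and 44.3% at a mean of at least 50). Differences between lists were not tested. The list medians of the carriers were 14.1 and 15.5 in these libraries and 19.1 to 27.9 in the others, the reverse of the oxidative phosphorylation list (173 and 228 against 94.0 to 115). The median over all named nuclear genes was lower in these libraries too, at 11.7 and 11.2 against 16.1 to 19.3, while the summed carrier level was higher (3539 and 3649 against 2797 to 3180). SLC25A3 alone added 1027 to 1079.7 of those sums.

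**Figure D5:**
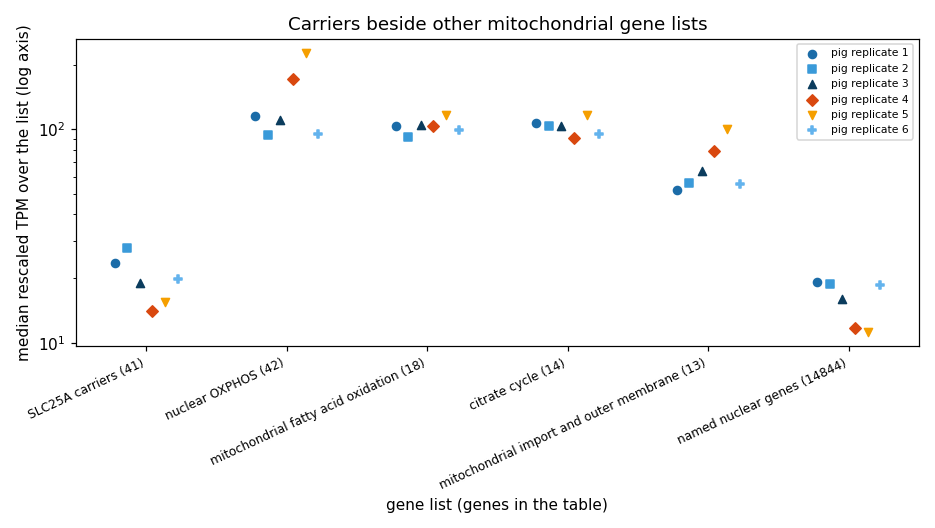
Median rescaled TPM (log axis) over each gene list in each of 6 pigs, with the number of genes in brackets. The carriers lie at 14.1 to 27.9, under the other mitochondrial lists in every pig, and replicates 4 and 5 are their lowest and the highest of the oxidative phosphorylation list.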

How the data were processed

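RNA was extracted from fat, depleted of ribosomal RNA, made into stranded libraries and sequenced by the authors, who quantified the pig libraries against Sscrofa11.1 with Kallisto 0.43.0 (tool and build from the submitters' processing notes) and deposited TPM per gene, with no read counts. An Ensembl release is named by the study for its reference annotation and its spatial data, and was not tied to this table in the sources read. TPM depend on all other genes of a table, keep no depth and give no counting error, so precision comes from the spread between 6 pigs. Every pig column had a sample.

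Symbols came from a table of pig gene IDs and names. TPM were rescaled over the 14844 named nuclear genes. The members, substrate classes, gene lists and pairs were chosen with earlier results of these data known. Genes given 1 by 1 were the members of the listed pairs, SLC25A1, SLC25A17, SLC25A20, SLC25A42, SLC25A44, the 5 of highest mean and the 5 of largest and of smallest CV among means of at least 10. Others named (SLC25A14, SLC25A15, SLC25A16, SLC25A21, SLC25A26, SLC25A28, SLC25A34, SLC25A38, SLC25A43, SLC25A46 and the lists for replicates 4 and 5) were added after their values were seen, and 1 member is not reported here by name.

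Of 14 listed pairs, 11 had both genes. They were tested with an exact two-sided sign-flip permutation test of mean log2((a + 1)/(b + 1)) of rescaled TPM, over 64 sign patterns, with Benjamini-Hochberg adjustment and a threshold of 0.05. Scripts were tested on simulated data. RefSeq gene positions and transcripts (all 41 members matched by symbol) were read with samtools 1.23.1, pysam 0.24.0 and Biopython 1.88, and every 31-base stretch of a member was sought in 80793 transcripts. Alternatives were other scalings, minimum levels, a pseudocount of 0.1 and leaving out libraries.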

Additional observations from a re-analysis of the deposited data

Results flagged for a closer look

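Among 38 members with a mean of at least 1 rescaled TPM, 1 pig lay apart from the other 5 in 2, by the gap to its nearest neighbour relative to the whole range. Chance gives this in about 1 in 20 sets, or 1.9 of 38. SLC25A14, an uncoupling-like carrier, was at 16.7 rescaled TPM in replicate 5 and 8.99 to 11.7 in the others. SLC25A25, an ATP-Mg/phosphate carrier, was at 33.1 in replicate 2 and 13.97 to 19.3 in the others. Neither gap passed the limit on deposited TPM, where they were 0.196 for SLC25A14 and 0.504 for SLC25A25.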

How the results depend on the processing

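The count of 8 pairs past the test was the same on deposited TPM, after median-centring and with a pseudocount of 0.1. It could not change, because the sign in each pig depends on neither scaling nor pseudocount. Each pair kept its direction in every leave-one-out set, for which 5 pigs allow no p under 0.0625. The median member level of 19.3 was 3.98 on deposited TPM, 3.06 after median-centring and 26.04 rescaled without the 0.5% most abundant genes. The median CV of 0.259 was 0.653 on deposited TPM, 0.340 with median-of-ratios scaling (added after seeing the data), 0.164 without replicates 4 and 5, 0.221 with a minimum mean of 10, and 0.209 (without replicate 5) to 0.278 when leaving out each replicate. The share of SLC25A3 was 30.8% of the family without the 4 ADP/ATP carriers. Members over 1 TPM in all pigs numbered 14, and 7 neighbours were told apart without replicates 4 and 5. Members higher in both of these libraries numbered 7 of 38 in rescaled TPM, 0 on deposited TPM and 11 after median-centring. They numbered 12 without the 0.5% most abundant genes and 16 with median-of-ratios scaling. The counts of 11, 12 and 16 were 28.9%, 31.6% and 42.1% of members, against 32.5%, 17.7% and 27.7% of named nuclear genes. The excess in rescaled TPM (18.4% against 10.4%) was therefore absent after median-centring. Members lower in both numbered 10 in rescaled TPM, 37 on deposited TPM and 8 after median-centring. They numbered 7 with median-of-ratios scaling or without the 0.5% most abundant genes. The shares lower were 21.1% against 35.7% after median-centring and 18.4% against 38.1% without those genes. With median-of-ratios scaling they were 18.4% against 28.05%. The cause was not tested. The unknown depth limits all low values. No paired analysis was possible because the replicate numbers are shared only by pig and rat samples, which were not compared.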
